A study of Mus musculus with 4 samples.

Results

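The cells described here are mammary epithelial cells that carried transcripts of hormone receptors together with the keratins Krt14 and Krt6a. They were chosen by their own counts, and each sum below is in UMIs (unique molecular identifiers, counted transcript molecules) per 10000 UMIs of the cell. A cell was taken if Esr1, Prlr, Areg and Foxa1 together reached 10, if Krt14 reached 3 and Krt6a reached 3, if the contractile genes Acta2, Myh11, Mylk and Tagln together stayed below 10, and if the secretory genes Wfdc18, Csn3, Elf5 and Kit together stayed below 10. The rule found 894 of 25950 kept cells (3.45%), and 890 of the 894 (99.6%) came from 1 library. They are called mixed cells below. The levels of these 14 genes follow from the choice and are given as description only.

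The mammary gland has an inner luminal layer and an outer basal layer. Hormone-sensing luminal cells carry the estrogen receptor (Esr1), the progesterone receptor (Pgr) and the luminal keratins Krt8 and Krt18, and signal to their neighbours through ligands such as amphiregulin (Areg) and RANKL (Tnfsf11). Basal cells carry Krt14, Krt5 and the transcription factor p63 (Trp63), and contract through smooth-muscle genes. Krt6a is best known as a keratin of hair follicle and wounded epidermis, and in the mouse gland it also marks some luminal cells.

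The study profiled EpCAM-sorted cells from glands of mice 6 months old with the 10x Genomics 3' kit v3.1. All animals carried pellets of estradiol and progesterone (E2/P4). The 4 libraries were Y541S with giredestrant, Y541S with vehicle, wild type (WT) with giredestrant and WT with vehicle. Y541S is a point mutant of the estrogen receptor, giredestrant is an oral estrogen receptor antagonist and degrader (a SERD) given at 30 mg/kg once a day for 4 days, and the vehicle is named MCT. Each group is 1 library, so no comparison between groups or cell classes has a test. The number of animals behind a library, and the promoter of the Y541S allele, are not stated in the labels. The source name given for all 4 libraries is that of the mature luminal layer. Basal cells were nevertheless between 33.4% (WT giredestrant) and 68.8% (WT vehicle) of kept cells in every library.

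After removal of barcodes under 1000 UMIs, under 500 genes or over 15% mitochondrial UMIs, 8622 cells remained for Y541S giredestrant, 7217 for Y541S vehicle, 3029 for WT giredestrant and 7082 for WT vehicle. Their median UMIs per cell were 6268, 15290, 21927 and 10868 in that order, so the library with nearly all mixed cells was the shallowest. Pairs of libraries shared 7 to 23 cell barcodes, which was at most 0.319% of the smaller library and touched at most 3 mixed cells. All intervals are 95% and cover counting error only, since cells of 1 library are not replicates.

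Mixed cells made up 10.3% of the Y541S giredestrant library (890 cells, exact binomial interval 9.69% to 11%). They were 0.0277% of the Y541S vehicle library (2 cells, 0.00336% to 0.10%) and none of 3029 cells of the WT giredestrant library (0% to 0.122%). In the WT vehicle library they were 0.0282% (2 cells, 0.00342% to 0.102%). With every cell thinned to 3000 UMIs Y541S giredestrant was again highest, at 12.2% (850 of 6967 cells). Y541S vehicle had 0.199% (14 of 7028), WT giredestrant none of 2964 (0% to 0.124%) and WT vehicle 0.134% (9 of 6721). Hormone-receptor cells within the contractile and secretory limits were present in all 4 libraries, at 2455, 2075, 1040 and 634 in the same order of groups. Of these, 961, 10, 8 and 9 reached the Krt14 threshold, and 1434, 420, 20 and 213 reached the Krt6a threshold. The Krt6a threshold was thus met in every library, and both thresholds, without thinning, by more than 2 cells only in Y541S giredestrant.

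**Figure D1:**
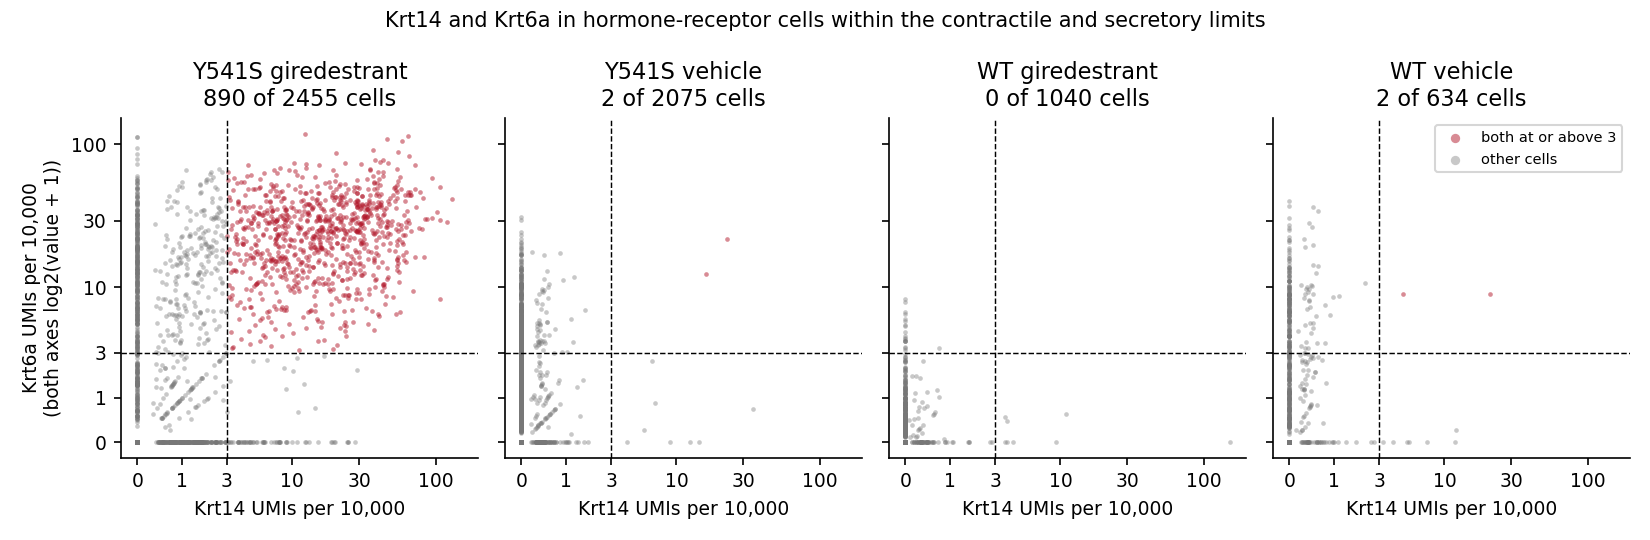
Krt14 (x axis) and Krt6a (y axis), in UMIs per 10000 on log2(value + 1) axes, in every cell that met the hormone-receptor sum and the contractile and secretory limits, 1 panel per library, with dashed lines at the thresholds of 3. The upper right corner holds 890 of 2455 cells in Y541S giredestrant, against 2 of 2075 in Y541S vehicle, 0 of 1040 in WT giredestrant and 2 of 634 in WT vehicle.

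Within the Y541S giredestrant library the mixed cells had a median Krt14 of 16.3 per 10000 (lowest 3.0, highest 128), a median Krt6a of 25.2 (3.18 to 118) and a median hormone-receptor sum of 34.6 (10.0 to 132). The median contractile sum was 0, and the median depth was 8246 UMIs and 2951 genes. Of the 890, 28 cells (3.15%) passed on 1 Krt14 UMI and 13 (1.46%) on 1 Krt6a UMI. At the edges of the rule, 46 members had Krt14 between 3 and 4 while 62 cells that met all else lay between 2 and 3. For Krt6a the same counts were 11 inside and 7 outside, and for the hormone-receptor sum 44 members lay between 10 and 12 and 34 cells between 8 and 10. Another 78 cells failed on the contractile limit alone, 9 on the secretory limit alone and 5 on both, so that 982 cells would meet the rule without these limits, against 16 in Y541S vehicle, 0 in WT giredestrant and 13 in WT vehicle.

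Comparisons of all genes were made inside the Y541S giredestrant library. The 890 mixed cells (8375929 UMIs in sum) were set against its 1494 hormone-sensing cells, which met the same sums with Krt14 below 3 (16062811 UMIs, median 9263 per cell), and against its 3701 basal cells, which had Krt14 at 3 or more, a contractile sum of 10 or more, and hormone-receptor and secretory sums below 10 (24055819 UMIs, median 5481). Levels are CPM, the UMIs of a gene scaled to the summed UMIs of the class, and can be compared between classes for 1 gene, not between genes. The log2 ratios are relative to the median gene at 20 CPM or more, which lay at -0.21 against hormone-sensing cells and at 0.00 against basal cells. A gene was counted as higher or lower at 2-fold or more, among genes with 20 or more UMIs over both classes.

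The mixed cells had the keratins of the basal layer at uneven levels. Krt14 was at 2197 CPM in mixed cells, against 49.2 in hormone-sensing cells and 3236 in basal cells, and Krt6a at 2648 CPM against 645 and 30.7. Krt15, a type I keratin of basal epithelia, was at 1605 CPM in mixed cells, 865 in hormone-sensing cells and 335 in basal cells. It was not highest in the mixed cells, since the hormone-sensing cells that met the Krt6a threshold had 1733 CPM. Krt5, the usual partner of Krt14, was at 69.4 CPM, against 4.30 in hormone-sensing cells and 616 in basal cells. Krt17 lay between the classes in the same way, at 439 CPM against 69.3 and 2226. Krt16, a keratin of stressed epidermis, was at 609 CPM against 79.5 and 75.6. Reads of Krt14, Krt16 and Krt17, and of Krt6a and Krt6b, can be hard to separate because the genes are close copies, and how the counting treated shared reads is not given in the sources used here.

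Outside the rule, the mixed cells had p63 near its basal level, contractile genes far below it and luminal keratins between the classes. Trp63, which encodes the basal regulator p63, was at 168 CPM in mixed cells, 43.3 in hormone-sensing cells and 187 in basal cells, a log2 ratio of 2.16 (interval 2.03 to 2.30) against hormone-sensing cells and -0.15 (-0.24 to -0.07) against basal cells. Contractile genes that the rule did not use were near their level in hormone-sensing cells. Cnn1 (calponin) was at 2.87 CPM in mixed cells, 2.80 in hormone-sensing cells and 539 in basal cells, and Oxtr, the oxytocin receptor that drives milk ejection, had 2 UMIs in all mixed cells, 2 in hormone-sensing cells and 1478 in basal cells. Of 11 contractile genes tested against basal cells, 0 were higher and 9 lower, with a median of -4.29, and Tpm1 (1690 CPM in mixed and 1687 in basal cells) was among the others. Over all genes tested, 14.1% were higher and 19.2% lower than in basal cells. The luminal keratins were lower than in hormone-sensing cells and higher than in basal cells. Krt8 was at 704 CPM in mixed cells, 2072 in hormone-sensing cells and 368 in basal cells, and Krt18 at 650 CPM, 1798 and 112.

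**Figure D2:**
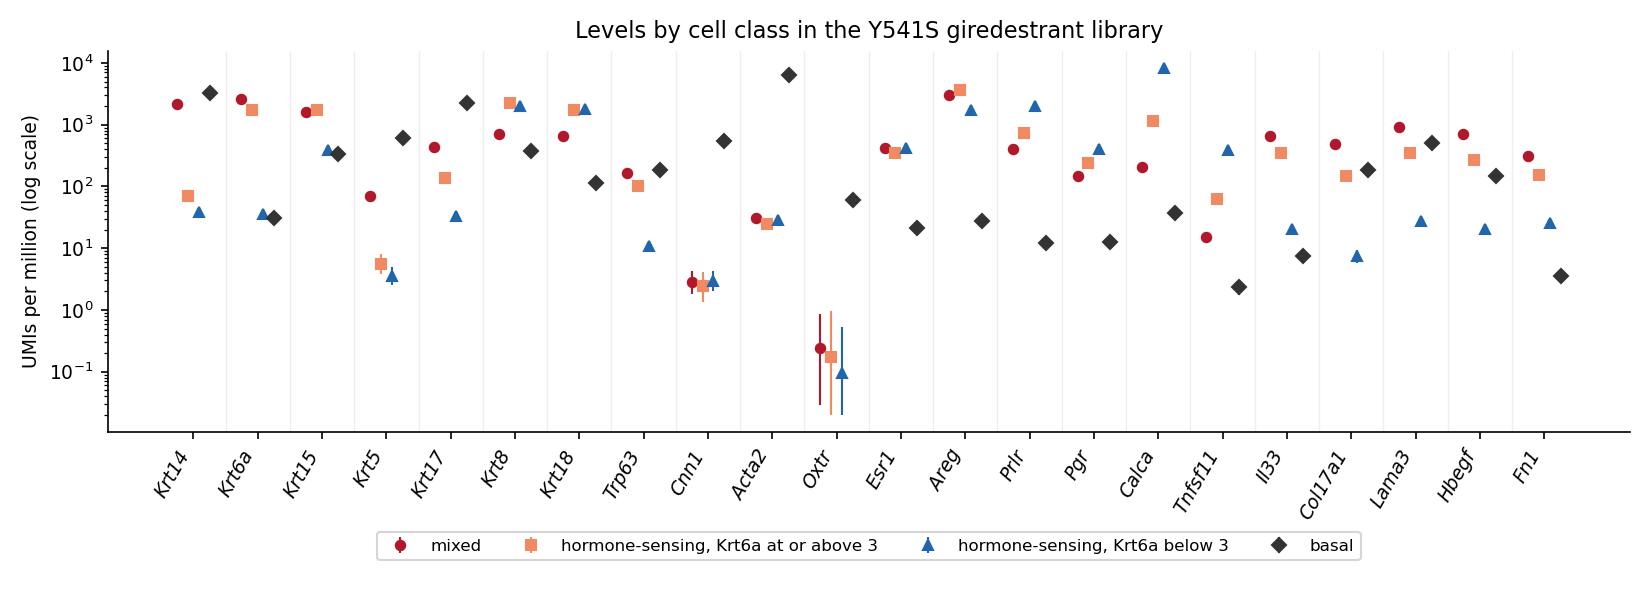
Levels in CPM (log y axis) of 22 genes in the Y541S giredestrant library, for mixed cells, hormone-sensing cells with Krt6a at or above 3, hormone-sensing cells with Krt6a below 3, and basal cells, with points for the summed class and bars for exact Poisson intervals. Krt14 is high in mixed and basal cells, Esr1 is near 400 CPM in the 3 hormone-receptor classes, and Cnn1 and Acta2 stand high in basal cells alone among the 4 classes.

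Of the hormone-receptor genes, Esr1 and Areg were near their hormone-sensing levels and Prlr was not. Esr1, the target of giredestrant, was at 413 CPM in mixed cells, 391 in hormone-sensing cells and 21.0 in basal cells, and Areg, an EGF receptor ligand that relays estrogen signals, was at 3017 CPM, 2423 and 27.9. Foxa1, a chromatin-opening factor that works with Esr1, was at 76.1 CPM against 92.8 and 2.45. Prlr, the prolactin receptor, was at 411 CPM in mixed cells against 1549 in hormone-sensing cells and 12.1 in basal cells. Outside the rule, Pgr was at 145 CPM in mixed cells, 348 in hormone-sensing cells and 12.7 in basal cells.

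In the GRCm38 annotation (GENCODE vM21), Krt14 lies on chromosome 11 from 100203162 to 100207548 and Krt6a on chromosome 15 from 101689910 to 101694307, both on the minus strand. Esr1 spans chromosome 10 from 4611593 to 5005614, Areg chromosome 5 from 91139599 to 91148432, Trp63 chromosome 16 from 25683763 to 25892102 and Il33 chromosome 19 from 29925114 to 29960718, all on the plus strand. All 6 are protein-coding genes.

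Against hormone-sensing cells, 1562 of 14942 genes tested were higher in mixed cells (10.5%) and 2003 were lower (13.4%), and without the shift to the median gene the counts were 1203 and 2683. The genes furthest up included several of the basal programme. Krt5 led with a log2 ratio of 4.22 (3.86 to 4.60). Nrg1, a ligand of ERBB receptors made by basal cells, was at 274 CPM in mixed cells, 21.5 in hormone-sensing cells and 1179 in basal cells, and Fst (follistatin, an activin antagonist) at 237, 20.1 and 721. Thbs1, the matrix protein thrombospondin 1, was at 240 CPM against 23.1 and 756. These 4 genes stayed 2-fold or more below basal cells, and Ltbp4, Nkain2 and Abcb1b were within 2-fold of them.

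The other 8 of the 15 leading genes were 2-fold or more above basal cells as well. Col17a1, the hemidesmosome collagen that anchors epithelium to its basement membrane, was at 493 CPM in mixed cells, 56.3 in hormone-sensing cells and 184 in basal cells. Il1r2, a decoy receptor for interleukin 1, was at 119 CPM against 11.1 and 1.79, and Tgfbi, a secreted matrix protein induced by TGF-beta, at 97.2 against 10.3 and 1.70. Inhba, the activin subunit, was at 50 CPM against 4.17 and 10.4, but its UMIs sat in few cells: with every cell thinned to 3000 UMIs, 4.67% of 793 mixed cells held one. Mndal and Ifi202b, related interferon-inducible genes whose reads may not be separable, were at 56.9 and 327 CPM in mixed cells, against 4.86 and 37.1 in hormone-sensing cells and 2.45 and 31.8 in basal cells. Igfbp4, a binding protein of insulin-like growth factors, was at 171 CPM against 21.0 and 20.2.

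Among the 15 genes furthest down against hormone-sensing cells was Calca, the precursor of calcitonin and CGRP, at 205 CPM in mixed cells, 5686 in hormone-sensing cells and 37.0 in basal cells, a log2 ratio of -4.59 (-4.66 to -4.52). Wfdc12, a protease inhibitor gene, was at 38.1 CPM against 1198 and 4.57, and Tnfsf11, the RANKL gene, at 14.9 against 269 and 2.33. Cited1, a coregulator of the estrogen receptor in the gland, was at 6.69 CPM against 122 and 1.04. Pnmt, the enzyme that makes adrenaline, was at 1.55 CPM (13 UMIs) against 66.6 and 0.374. Fxyd2, Asic2, Adra1a, Unc5d, Tmprss6, Adarb2 and Scnn1b, which encode a sodium pump subunit, a proton-gated channel, an adrenergic receptor, a netrin receptor, a serine protease, an RNA-editing family member and a sodium channel subunit, had ratios from -4.48 to -3.61. These 12 genes stayed 2-fold or more above basal cells, although the basal ratio turned below 0 for Scnn1b without the highest doublet scores, and for Fxyd2, Cited1 and Adarb2 against the 77 basal cells with Krt6a. Slpi, a leukocyte protease inhibitor, and Iigp1, an interferon-induced GTPase, were below both classes, at 36.5 and 6.92 CPM in mixed cells, 605 and 104 in hormone-sensing cells and 131 and 49.0 in basal cells. Srgn, a secretory granule proteoglycan, was at 2.03 CPM against 52.4 and 2.83.

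Against basal cells, 2210 of 15715 genes tested were higher in mixed cells (14.1%) and 3019 were lower (19.2%). The 10 furthest up were Grm8, Nrxn3, R3hdml, Sptlc3, Il33, Fn1, Aqp5, Rhox5, Dnah11 and Prune2, with log2 ratios from 7.48 to 6.33, and each had at most 7.52 CPM in basal cells. Il33 encodes interleukin 33, an alarmin of epithelial nuclei, and was at 654 CPM in mixed cells, 138 in hormone-sensing cells and 7.36 in basal cells. Fn1 (fibronectin) was at 311 CPM against 71.4 and 3.53, and Prune2 at 606 against 214 and 7.52. Aqp5, a water channel, and Rhox5, a homeobox gene, were close to hormone-sensing cells, at 163 and 121 CPM in mixed cells, against 181 and 192 in hormone-sensing cells and 1.87 and 1.41 in basal cells.

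The 10 furthest down were Oxtr, Rcn3, Spon2, Col11a1, Il17b, Stac, Wif1, Cnn1, Ccl7 and Hgf, with log2 ratios from -8.01 to -7.40. They span the oxytocin receptor, matrix genes, the Wnt antagonist Wif1 and the secreted factors Il17b, Ccl7 and Hgf. Il17b had 12 UMIs in mixed cells and 22 in hormone-sensing cells (1.43 and 1.37 CPM), against 7951 in basal cells (331 CPM). Oxtr, Rcn3, Col11a1 and Hgf had 2 or 3 UMIs in mixed cells, and the interval of Oxtr ran from -11.06 to -6.15.

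A set of 581 genes was 2-fold or more above both classes, of 14245 tested against both (4.08%), and 456 were below both (3.20%). Another 337 were above hormone-sensing cells and below basal cells, and 270 the reverse. The genes furthest above both, ranked by the smaller ratio, included Il1r2, Tgfbi, Mndal, Ifi202b, Igfbp4, Krt16, Kcnn4, Dapl1, Abi3bp, Dnah11 and Csf3. Dapl1 was at 312 CPM in mixed cells, 49.9 in hormone-sensing cells and 4.2 in basal cells, and Abi3bp, a matrix protein, at 188 against 30.6 and 16.2. Csf3, the cytokine G-CSF, was at 77.0 CPM against 13.8 and 6.32, and Kcnn4, a calcium-activated potassium channel, at 67.6 against 10.7 and 4.28. These 11 genes were picked for being above both classes, so their order over the 3 classes follows from the choice. Kcnn4 was higher in secretory cells, at 184 CPM. Mndal, Igfbp4, Abi3bp and Csf3 were higher in cells picked by fibroblast, endothelial and immune genes, at 265, 524, 424 and 128 CPM. The remaining genes of the 11 were lower in both of these classes than in mixed cells.

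**Figure D3:**
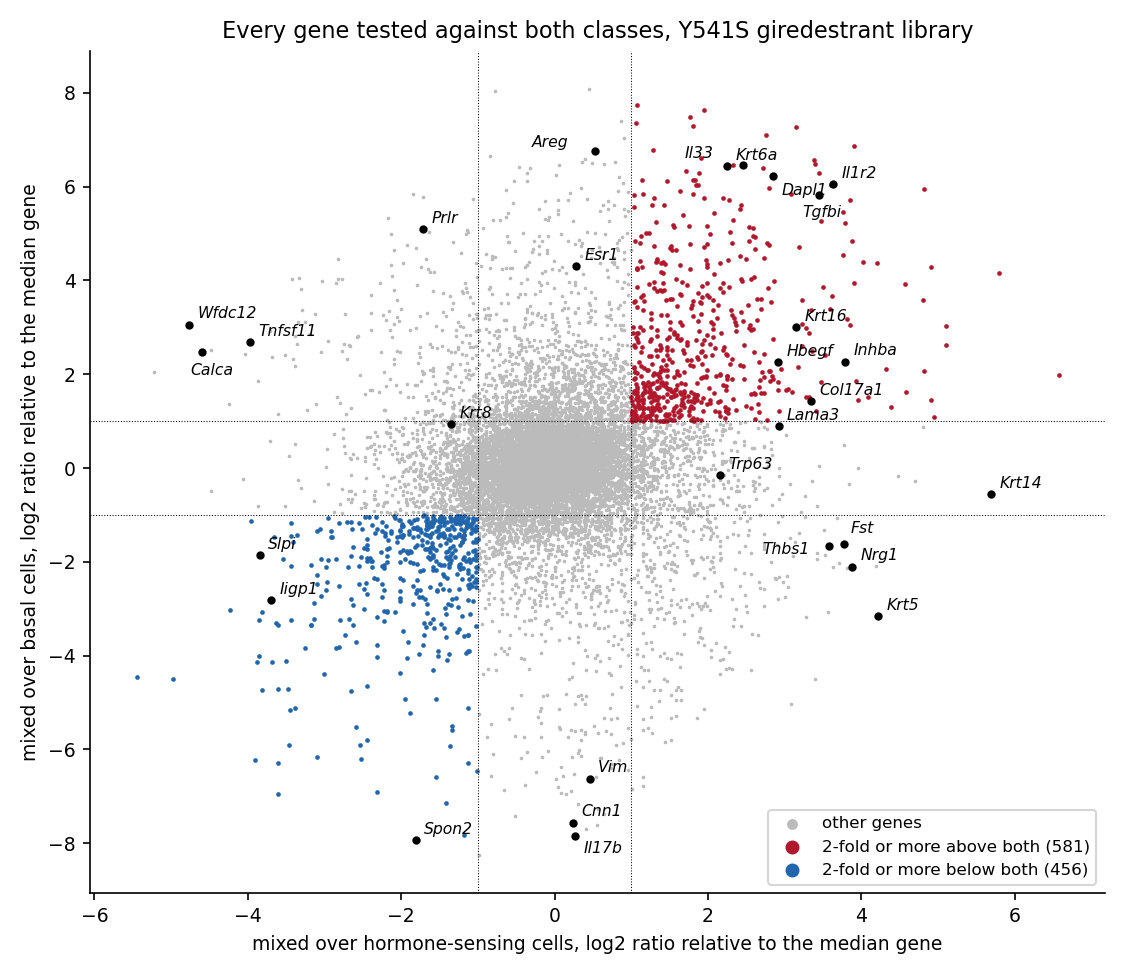
Log2 ratio of mixed over hormone-sensing cells (x axis) against log2 ratio of mixed over basal cells (y axis), both relative to the median gene, for the 14245 genes tested against both classes in the Y541S giredestrant library. The 581 genes above both lie upper right and the 456 below both lie lower left, with Krt5, Nrg1, Fst and Thbs1 at lower right and Calca, Wfdc12 and Tnfsf11 at upper left.

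Promoter windows of RefSeq (GRCm38.p6, 250 bases before to 50 after a start) were searched for 3 motifs on both strands, which were picked after the ratios were known: TGANTCA, the AP-1 type site, TGACGTCA, a cAMP response element, and the palindromic estrogen response element. No motif contains another. The AP-1 type motif stood in 61 of 468 windows (13%) of the 353 genes above both classes that had one, against 693 of 12901 (5.37%) for all genes tested with a window and 2565 of 32851 (7.81%) in the whole table. The cAMP element stood in 7 of the 468 (1.5%) against 392 of 12901 (3.04%) and 588 of 32851 (1.79%), and the estrogen element in 1 of the 468 (0.21%), 2 of the 12901 and 23 of the 32851. A further count covered 60 genes, those named by rank with Krt14, Krt6a, Esr1, Areg, Trp63 and Il33, and left out the other rule genes. Of the 31 of these that have a window at the annotated gene start, in whatever direction they differed, 1 held the AP-1 type motif. A match describes letters and not binding. Fosl1, a Fos-family subunit of AP-1, was at 490 CPM in mixed cells, 115 in hormone-sensing cells and 270 in basal cells. Of the 12 AP-1 and immediate early genes tested, 3 were higher and 0 lower than in hormone-sensing cells (median 0.46), and 1 was higher (Jun) and 1 lower (Fos) than in basal cells (median -0.16). Over all genes, 10.5% were higher and 13.4% lower than in hormone-sensing cells, and 14.1% and 19.2% than in basal cells. Nothing is read from counts of a list this short. The windows shown were picked because they hold a motif, and are those of 3 genes above both classes, outside the genes named by rank, whose RefSeq start lies within 14 bases of the annotated gene start, and of Areg, with the motif in capitals, read 5′ to 3′ on the strand of the gene. Sprr1a, a precursor of the cornified envelope, was at 189 CPM in mixed cells, 36.5 in hormone-sensing cells and 6.11 in basal cells, and its window (chr3:92485832-92486131, minus strand) holds 2 copies.
Sprr1a: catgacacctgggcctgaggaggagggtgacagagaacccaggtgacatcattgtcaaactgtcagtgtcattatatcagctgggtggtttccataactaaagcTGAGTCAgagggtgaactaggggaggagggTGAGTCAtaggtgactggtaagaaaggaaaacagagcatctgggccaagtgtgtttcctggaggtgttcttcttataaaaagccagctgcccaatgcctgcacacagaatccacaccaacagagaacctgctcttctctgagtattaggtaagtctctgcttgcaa
Plaur, the urokinase receptor of wound edges, was at 769 CPM against 179 and 153, and its window (chr7:24462233-24462532, plus strand) holds 1 copy.
Plaur: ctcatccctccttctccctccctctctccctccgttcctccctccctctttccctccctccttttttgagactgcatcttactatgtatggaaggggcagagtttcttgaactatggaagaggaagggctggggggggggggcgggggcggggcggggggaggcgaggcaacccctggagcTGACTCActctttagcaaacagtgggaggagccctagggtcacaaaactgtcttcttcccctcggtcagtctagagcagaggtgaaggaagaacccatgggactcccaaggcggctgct
F3, the tissue factor that starts clotting, was at 1637 CPM against 666 and 135, and its window (chr3:121723287-121723586, plus strand) holds 2 copies.
F3: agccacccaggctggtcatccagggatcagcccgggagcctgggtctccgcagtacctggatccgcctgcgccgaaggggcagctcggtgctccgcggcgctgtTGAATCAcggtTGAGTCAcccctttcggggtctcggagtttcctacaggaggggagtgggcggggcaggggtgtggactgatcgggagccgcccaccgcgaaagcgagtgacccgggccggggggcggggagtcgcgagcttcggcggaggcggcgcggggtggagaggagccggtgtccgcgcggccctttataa
Areg is shown because its level differed little between mixed and hormone-sensing cells, and its window (chr5:91139349-91139648, plus strand) holds the cAMP element and no AP-1 type motif.
Areg: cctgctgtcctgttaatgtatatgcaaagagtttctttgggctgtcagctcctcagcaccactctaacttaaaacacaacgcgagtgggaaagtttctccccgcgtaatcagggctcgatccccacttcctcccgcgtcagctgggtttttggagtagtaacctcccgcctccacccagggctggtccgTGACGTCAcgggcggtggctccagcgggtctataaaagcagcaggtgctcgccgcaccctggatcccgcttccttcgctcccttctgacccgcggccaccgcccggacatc

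Gene lists were described by their counts and medians, beside a median of all genes tested of -0.08 against hormone-sensing cells and -0.03 against basal cells. Of all genes tested, 10.5% were higher and 13.4% lower than in hormone-sensing cells, and 14.1% were higher and 19.2% lower than in basal cells. Genes that tie cells to the basement membrane were mostly higher. Of 20 integrin and basement membrane genes, 15 were higher and 0 lower than in hormone-sensing cells (median 1.57), and 9 were higher and 4 lower than in basal cells (median 0.82). Lama3, a chain of laminin 332, was at 923 CPM in mixed cells, 141 in hormone-sensing cells and 496 in basal cells, and Itga2, a collagen receptor subunit, at 662, 110 and 158. Itgb6, part of an integrin that activates TGF-beta, was at 608 CPM against 205 and 22.2. Col4a1 and Col4a2, the network collagens of the basement membrane, were above hormone-sensing cells but far below basal cells, at 15.2 and 7.04 CPM in mixed cells, against 6.10 and 3.49 in hormone-sensing cells and 609 and 331 in basal cells.

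Of the 18 basal markers, 14 were higher and 0 lower than in hormone-sensing cells (median 2.23), but 2 were higher (Krt15 and Col17a1) and 11 lower than in basal cells (median -1.96). Apoe, a lipid carrier abundant in basal cells, was at 371 CPM in mixed cells, 68.1 in hormone-sensing cells and 4329 in basal cells, and Snai2, a basal transcription factor from another list, at 44.5, 5.85 and 133. Of the 22 lineage transcription factors tested, 10 were higher and 3 lower than in hormone-sensing cells (median 0.87). Against basal cells, 6 of the 22 were higher and 10 lower (median -0.62). Sox9, a factor of luminal progenitors, was at 793 CPM in mixed cells against 361 and 289, and Gata3, the luminal regulator, at 36.2 against 105 and 128.

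The list of hormone-sensing markers had 0 higher and 6 lower of 8 against hormone-sensing cells (median -1.41), with Ly6a (64.1 CPM in mixed cells, 43.3 in hormone-sensing cells) among the others. In the progesterone response list 7 of 10 genes were lower and 0 higher (median -1.48), among them Wnt4, a Wnt ligand downstream of progesterone, at 158 CPM in mixed cells, 575 in hormone-sensing cells and 8.36 in basal cells. Against basal cells 8 of these 10 were higher. Of the 17 estrogen response genes tested, 4 were higher and 2 lower (median 0.34), beside 10.5% higher and 13.4% lower of all genes. With a list this short, nothing is read from these counts. Greb1, a direct target of the estrogen receptor, was at 121 CPM in mixed cells, 79.4 in hormone-sensing cells and 21.1 in basal cells, and Ccnd1 (cyclin D1) at 31.2, 114 and 60.9.

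Ligands and receptors of the EGF family were split. Of 11 tested outside the rule, 6 were higher and 3 lower than in hormone-sensing cells (median 1.29). Hbegf and Epgn, ligands of the EGF receptor, were at 698 and 804 CPM in mixed cells, against 108 and 253 in hormone-sensing cells and 146 and 10.3 in basal cells. Egfr itself was at 650 CPM against 171 and 282. The 3 lower genes were the other receptors, Erbb2 (13 CPM in mixed cells, 31.0 in hormone-sensing cells and 6.48 in basal cells), Erbb3 (37.0, 118 and 6.11) and Erbb4 (30.4, 187 and 19.2).

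Among 15 NF-kB, chemokine and acute phase genes, 11 were higher and 1 lower than in hormone-sensing cells (median 2.05). Cxcl1, a neutrophil attractant, was at 148 CPM in mixed cells, 26.9 in hormone-sensing cells and 44.6 in basal cells, and Tnfaip3, a feedback inhibitor of NF-kB, at 55.3, 14.7 and 6.03. Lcn2, an iron-binding acute phase protein, was at 20.3 CPM against 14.1 and 825. Of 17 stress keratin and cornified envelope genes, 10 were higher and 1 lower than in hormone-sensing cells (median 1.46). Genes of late keratinocyte differentiation were at low levels in the mixed cells. The keratin Krt1 and the envelope protein Lor were at 1.43 and 1.31 CPM in mixed cells, against 1.99 and 5.17 in hormone-sensing cells and 0.499 and 0.956 in basal cells, and Krt10 was at 5.85 against 10.6 and 12.7. Ivl (involucrin), at 11 CPM against 0.934 and 0.249, was above both classes.

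Few cell-cycle genes differed by 2-fold. Of 12 S-phase genes 0 were higher and 1 lower than in hormone-sensing cells (median 0.54). Of 12 G2/M genes 0 were higher and 1 lower (median -0.15). Over all genes tested 10.5% were higher and 13.4% lower. The counts were the same against basal cells (medians -0.26 and -0.30), where 14.1% of all genes were higher and 19.2% lower. With lists this short, nothing is read from these counts. Markers of other cell types were near 0. The 6 fibroblast markers summed to 12.5 CPM in mixed cells (1 of them at 0), 6.97 in hormone-sensing cells and 407 in basal cells, the 5 endothelial markers to 4.54 (2 at 0), 24.7 and 27.9, and the 6 immune markers to 5.01 (2 at 0), 9.77 and 6.11. Of 13 hair follicle genes listed, 12 were counted here, and 7 of these 12 were at 0 in mixed cells. The 12 summed to 18.6, 11 and 21.7 CPM in mixed, hormone-sensing and basal cells.

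**Figure D4:**
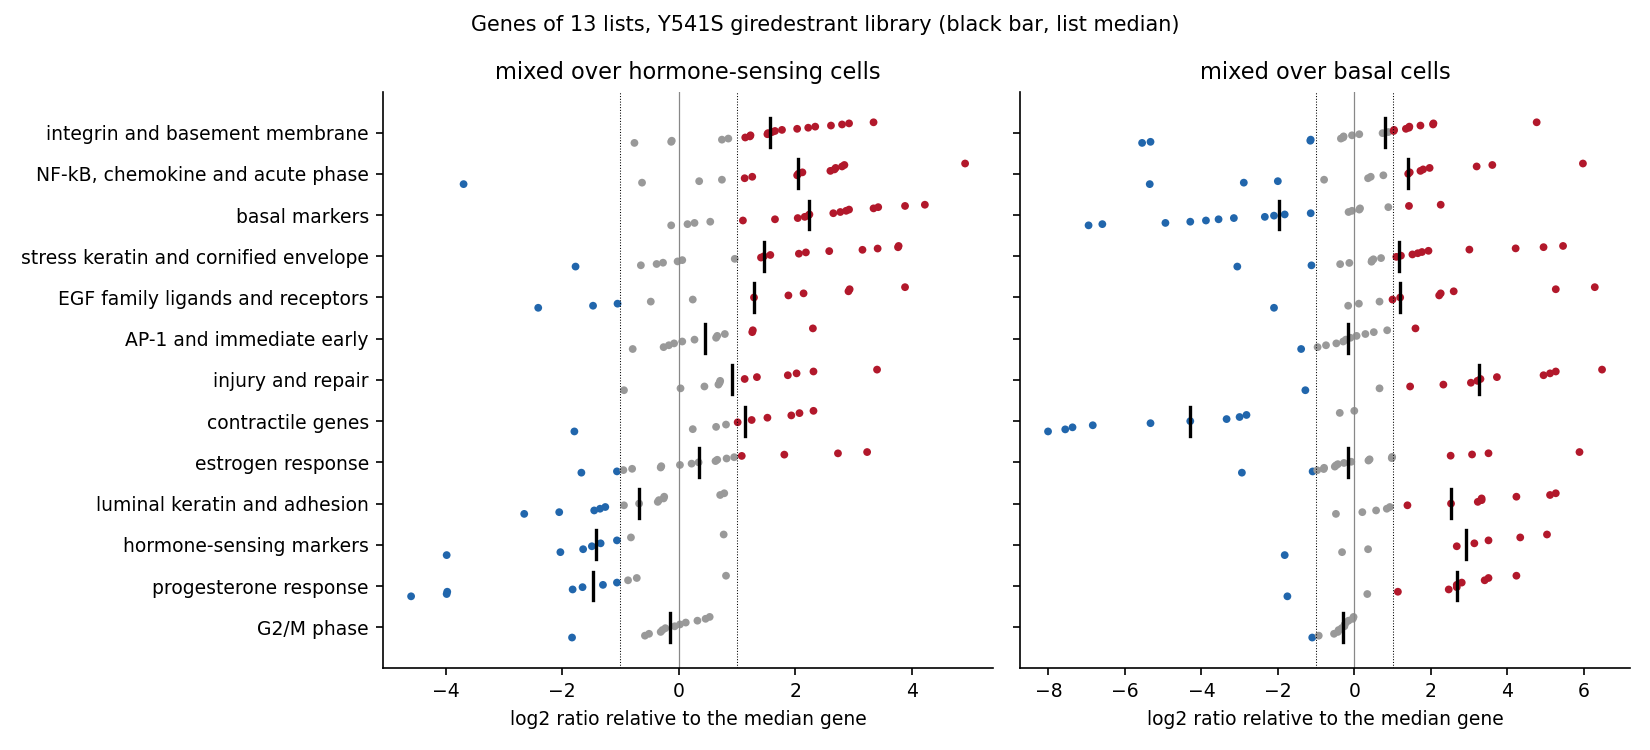
Log2 ratios relative to the median gene (x axes) of each tested gene of 13 lists (rows), for mixed over hormone-sensing cells on the left and mixed over basal cells on the right, with red points at 2-fold or more higher, blue points at 2-fold or more lower and black bars at list medians. The basal markers have a median of 2.23 on the left and -1.96 on the right, and the progesterone response genes -1.48 and 2.68.

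The 2455 hormone-receptor cells of the Y541S giredestrant library were also split by Krt14 alone, into 952 cells with none, 542 above 0 and below 3 per 10000, 339 from 3 to 10, 236 from 10 to 20, 246 from 20 to 40 and 140 at 40 or more. Esr1 differed little over these bins, at 406, 373, 412, 421, 439 and 374 CPM. Calca was at 6033, 5248, 814, 328, 61.8 and 26.8 CPM, and Tnfsf11 at 290, 242, 42.4, 22.1, 3.72 and 1.53. Krt8 was at 2066, 2080, 1082, 752, 428 and 321 CPM. Calca, Tnfsf11 and Krt8 were thus lowest where Krt14 was highest, and Areg, at 2329, 2541, 3385, 2810, 2668 and 2741 CPM, was not.

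Other genes were high in all bins above the threshold. Il33 was at 101, 184, 596, 587, 628 and 803 CPM. Nrg1 was at 13.6, 31.4, 171, 264, 358 and 351 CPM and Krt5 at 3.46, 5.35, 23.4, 63.5, 99.4 and 140. Acta2, a rule gene, stayed between 26.6 and 36.5 CPM and Cnn1 between 1.39 and 4.05, with no order over the bins.

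**Figure D5:**
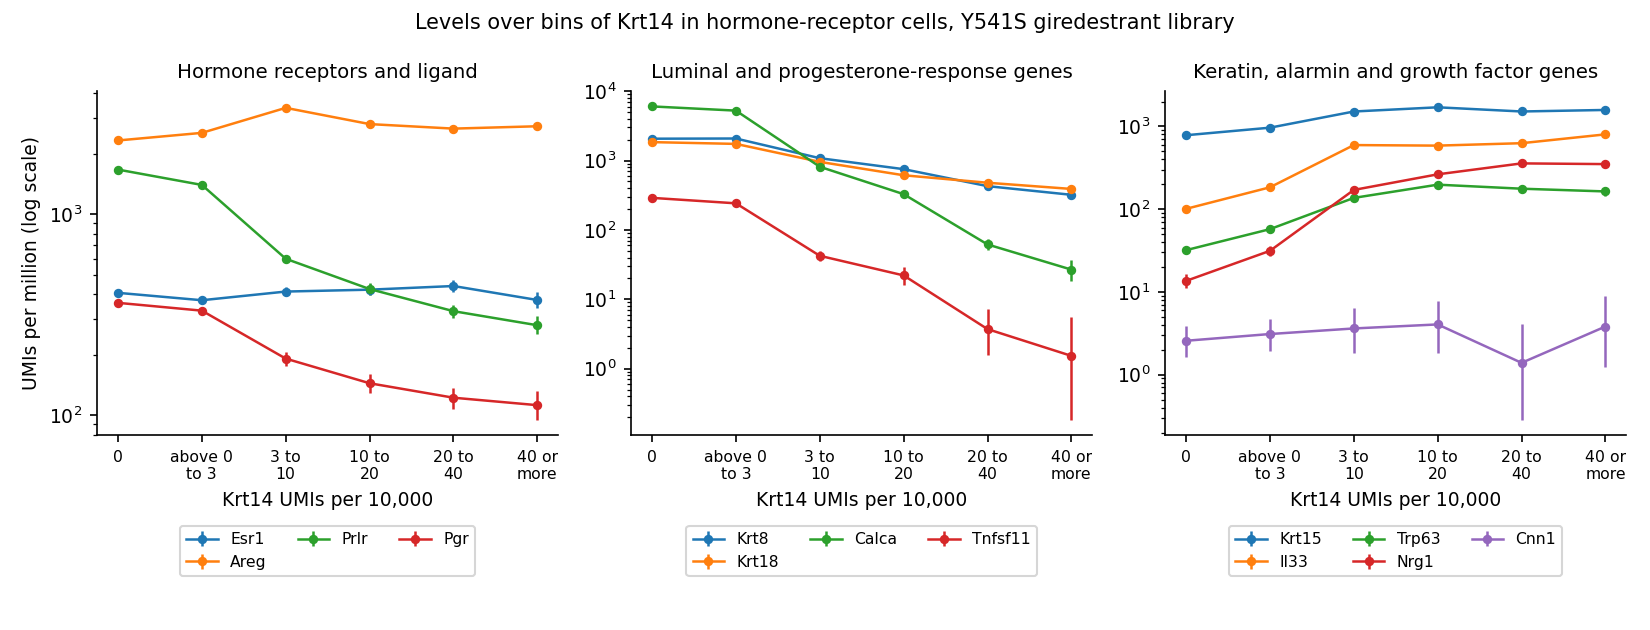
Levels in CPM (log y axes) over 6 bins of Krt14 (x axes, UMIs per 10000) in hormone-receptor cells of the Y541S giredestrant library, with bars for exact Poisson intervals. Esr1 stays between 373 and 439 CPM, Calca and Tnfsf11 are lowest in the highest bin at 26.8 and 1.53 CPM, and Il33 stands above 580 CPM in every bin from 3 per 10000 up.

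Krt6a split the hormone-sensing cells too, a division made after the data were seen. The 544 of 1494 with Krt6a at 3 or more are compared here with the mixed cells and with the 950 below it. Il33 was at 654 CPM in mixed cells, 350 in hormone-sensing cells with Krt6a and 20.6 in those without. Lama3 was at 923, 346 and 27.5 CPM and Egfr at 650, 429 and 28.2 in the same order. Krt15 was equal or higher with Krt6a alone, at 1605 CPM in mixed cells, 1733 with Krt6a and 387 without. Calca was at 205 CPM in mixed cells, 1144 with Krt6a and 8191 without. Krt8 did not follow this order, at 704, 2247 and 1976 CPM, nor did Areg, at 3017, 3710 and 1713. Against the 950 cells without Krt6a, 2194 genes were higher and 2305 lower in mixed cells.

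Hormone-sensing cells with Krt6a existed in every library, and several of the genes above were lower in them outside the Y541S giredestrant library. Il33 was at 350 CPM in the 544 such cells of Y541S giredestrant, at 12.3 in 418 cells of Y541S vehicle, at 16.6 in 20 cells of WT giredestrant (11 UMIs) and at 1.09 in 211 cells of WT vehicle. Krt15 was at 1733, 343, 3.02 and 12.9 CPM in the same order, with 2 UMIs in WT giredestrant, and Trp63 at 102, 2.18, 34.7 and 2.33. Over all hormone-sensing cells, Col17a1 was at 56.3 CPM in Y541S giredestrant, 2.08 in Y541S vehicle, 0.759 in WT giredestrant and 1.13 in WT vehicle. Hbegf differed less, at 108, 79.1, 45.2 and 87.3 CPM. Genotype, treatment, library depth and animal cannot be told apart in these 4 libraries.

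The 4 mixed cells outside the Y541S giredestrant library were not alike. The pair in Y541S vehicle had 21 and 9 Il33 UMIs and 25 and 25 Krt15 UMIs, at 13455 and 17022 UMIs per cell, with 6 and 1 Krt8 UMIs. The pair in WT vehicle had no Il33 and no Krt15 UMI at 33654 and 48385 UMIs per cell, with 69 and 132 Krt8 UMIs. In each pair 1 cell was among the highest doublet scores of its library.

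As shares of cells, with each cell thinned to 2000 UMIs, Il33 was seen in 51.1% of 846 mixed cells, 13.4% of hormone-sensing cells and 0.616% of basal cells (unthinned 78.8%, 22.9% and 1.70%). The 65 stromal and immune cells, a class picked by fibroblast, endothelial and immune genes, showed Il33 in 4.62%. Their median depth was 4720 UMIs against 8246 in mixed cells. Il33 is not confined to epithelial cells in these libraries. In WT vehicle the stromal and immune cells held 162 Il33 UMIs, and the hormone-sensing cells 18. The 4.62% is therefore not a background level for Il33. Krt14 was seen in 91.4% of mixed cells, 9.90% of hormone-sensing cells, 97.6% of basal cells and 9.23% of stromal and immune cells. The rule itself held Krt14 low in hormone-sensing cells and high in mixed and basal cells, so nothing is read from these shares. Krt6a, which chose the mixed cells, was seen in 96.2%, 35.4%, 3.46% and 3.08% in the same order. Esr1 was seen in 50.1% of mixed and 50.1% of hormone-sensing cells, against 4.63% of secretory cells. Unthinned, the shares in mixed cells were 82.9% for Esr1 and 100% for both keratins by the rule.

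Ratios to Krt14 are given as a description, since Krt14 and Krt6a chose the cells. Per Krt14 UMI, mixed cells had 1.21 Krt6a UMIs (1.18 to 1.23) and basal cells 0.00949, and stromal and immune cells had 0.280 (7 of 25 UMIs, 0.102 to 0.666). Mixed cells had 0.00130 Cnn1 UMIs per Krt14 UMI (0.000835 to 0.00194) against 0.167 in basal cells, and 0.0316 Krt5 UMIs against 0.190. Krt15 stood at 0.730 against 0.104. The highest scores of the library took 42 of 890 mixed cells (4.72%), against 5.08% of basal cells, 3.21% of hormone-sensing cells and 6.90% of all its cells.

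Neighbours in expression space were found with the 14 rule genes left out. Of the 20 nearest cells of a mixed cell, 70.6% on average were mixed, although mixed cells were 10.3% of the library. Another 17.5% were hormone-sensing with Krt6a, 1.58% hormone-sensing without it and 0.225% basal. In 778 mixed cells (87.4%) at least 10 of the 20 neighbours were mixed, and 4 had no mixed neighbour. Another 321 cells outside the rule had neighbourhoods of this kind, of which 161 were hormone-sensing with Krt6a, 139 fell outside the epithelial classes defined here, 14 had Krt14 without Krt6a, 5 were basal and 2 were hormone-sensing without Krt6a. In sum over the 321, Krt14 was at 1400 CPM and Il33 at 565, and Acta2 was at 126 CPM against 31.3 in mixed cells. The 71 cells with Krt14 and without Krt6a had 19.6% mixed neighbours, a median of 3332 UMIs and 3.96% mitochondrial UMIs, against 2.05% in mixed cells.

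The mixed cells also varied among themselves. In 793 of them thinned to 3000 UMIs, the ratio of variance to mean had a median of 1.09 over 4196 genes. It was highest for Malat1, at 30.4. Next came Inhba at 10.7 and Calca, which 14.4% of these cells held, at 8.84. Gpx3, a secreted antioxidant enzyme, had 7.19 and Fn1 had 5.65. In hormone-sensing cells Malat1 had a ratio of 101, Calca of 36.5, Gpx3 of 8.14, Fn1 of 4.49 and Inhba of 1.62.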

How the data were processed

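The deposited files of the 4 libraries hold raw UMI counts per gene and barcode, written by Cell Ranger 6.0.1 per the file headers, against GRCm38 per the submitters' processing notes. The annotation release and the treatment of intronic reads are not given in the sources used here. Rows sharing a symbol were summed. Barcodes with at least 1000 UMIs, at least 500 genes and at most 15% mitochondrial UMIs were kept. Cells were classed by sums per 10000 UMIs. Counts were summed over the cells of a class, scaled to CPM and compared as log2 ratios relative to the median gene at 20 CPM or more, with exact conditional binomial intervals. Levels carry exact Poisson intervals and shares exact Clopper-Pearson intervals, all at 95%, covering counting error alone. No test was made, since every group is 1 library. Genes needed 20 UMIs over both classes and were counted at 2-fold. The comparison code was tested on simulated data.

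Shares of cells were computed after thinning to 2000 UMIs and the rule was repeated at 3000. Neighbours were the 20 nearest cells in 30 principal components of 2000 variable genes. Doublets were scored with Scrublet in scanpy 1.11.5 and left in, and an alternative removed the highest scores at 0.8% per 1000 cells. The automatic calls took 0.0282% of WT vehicle cells, where the caller did not work. Other tools were numpy 2.4.6, scipy 1.17.1, pandas 2.3.3, scikit-learn 1.9.0, R 4.3.3 and edgeR 4.0.16, the last used for TMM scaling alone.

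The named genes are, without rule, mitochondrial, ribosomal and unnamed genes and with at least 100 UMIs over both classes and 50 CPM in the higher one, the 15 highest and 15 lowest against hormone-sensing cells, the 10 highest and 10 lowest against basal cells, and the 12 with the highest smaller ratio above both. A gene that this rule selects is not reported here. Members of gene lists were named as examples after their values were seen, as were the 4 promoter windows. The members and the 37 gene lists were chosen with earlier results of these data known. Alternatives changed the thresholds, depth, doublets, scaling, weighting and gene filter.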

Additional observations from a re-analysis of the deposited data

Results flagged for a closer look

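The share of mixed cells was higher with giredestrant than with vehicle in Y541S, and wild type had too few mixed cells to give a direction. The difference was 10.3 percentage points in Y541S (890 of 8622 cells with giredestrant, 2 of 7217 with vehicle). In wild type it was -0.0282 percentage points (0 of 3029 cells with giredestrant, 2 of 7082 with vehicle). The wild-type intervals overlapped, at 0% to 0.122% with giredestrant and 0.00342% to 0.102% with vehicle. With 1 library per group the difference was not tested, and the wild-type value rests on 2 cells, 1 of which had one of the highest doublet scores of its library.

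Barcodes under 1000 UMIs were left out of the cells. In the Y541S giredestrant library 26 of 1098 such barcodes (2.37%, 1.55% to 3.45%) met the keratin, hormone-receptor, contractile and secretory sums, against 0 of 251 in Y541S vehicle, 0 of 210 in WT giredestrant and 0 of 572 in WT vehicle.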

How the results depend on the processing

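No paired analysis was possible because each group has 1 library. In the Y541S giredestrant library mixed cells were 10.3% of cells, and 8.46% with both keratin thresholds at 6 per 10000, 12.2% with cells thinned to 3000 UMIs and 7.64% with a hormone-receptor sum of 20. With 100 or more UMIs per gene, 934 genes were higher and 1116 lower than in hormone-sensing cells, and 1324 higher and 1822 lower than in basal cells, where fewer genes were tested. With no filter beyond 1 UMI, 3431 genes were higher than in basal cells. Against the 77 basal cells with Krt6a at 3 or more, 1345 were higher and 1810 lower, and the ratios of Fxyd2, Cited1 and Adarb2 turned to -0.32, -0.16 and -0.08. Without the highest doublet scores the ratio of Scnn1b over basal cells turned to -0.79. The cause of these 4 turns was not tested. Over 1206 values of the 61 named genes under the alternatives, 899 moved by less than their counting interval, 303 moved by more and 4 turned. Against the hormone-sensing cells with no Krt14 UMI (952 cells), 1643 genes were higher and 1882 lower. The comparison with hormone-sensing cells without Krt6a and the count without contractile and secretory limits were chosen after seeing the data. Depth limits genes with few UMIs in the mixed cells, such as Oxtr with 2.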
